A study of Mus musculus with 8 samples.

Results

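The genes of the motile cilium axoneme, taken as every gene whose symbol begins with Cfap, Dnah, Dnaic, Dnai, Rsph, Tekt or Drc followed by a digit, were followed in the cerebellum of old and young mice. The tables listed 66 such genes among 17700 genes in all, of which 33 were Cfap, 15 Dnah, 2 Dnaic, 3 Drc, 8 Rsph and 5 Tekt genes, and no gene had a Dnai symbol. All were C57BL/6JN mice with no labelled treatment or genetic change. Old mice numbered 4, aged 83 to 102 weeks, and young mice 4, aged 19 to 22 weeks, with 2 females and 2 males at each age. Old 1 was a male of 93 weeks, old 2 a female of 83 weeks, old 3 a male of 83 weeks and old 4 a female of 102 weeks. Young 1 and young 2 were males and young 3 a female of 19 weeks, and young 4 was a female of 22 weeks. Total RNA depleted of ribosomal RNA was sequenced from the frozen cerebellum of each animal, with 1 library a mouse. Of the 66 genes, 64 reached a mean of 0.3 CPM (counts scaled to the library total) and were tested. The other 2, Rsph6a and Tekt3, averaged 0.169 and 0.218 CPM.

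Motile cilia beat because dynein motors, held as outer and inner arms on the microtubule doublets of the axoneme, slide the doublets past each other. The nexin-dynein regulatory complex links neighbouring doublets and holds back the sliding, while the central apparatus at the core and the radial spokes that reach towards it time the motors. In the brain such cilia stand mainly on the ependymal cells that line the ventricles, and epithelial cells of the choroid plexus also bear cilia, so a dissected cerebellum carries them on the tissue that faces the fourth ventricle.

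Library totals ran 6079485 to 7236720 counts, so that 3 counts of a gene stood for 0.415 to 0.493 CPM, a floor that covers counting error only. Counts of every pair of libraries differed by more than sampling noise. Markers of cerebellar cells were abundant in every library: the 10 granule neuron genes summed to 4459 to 6012 CPM in old and 4756 to 7258 CPM in young mice, and the 8 Purkinje cell genes to 3775 to 4982 CPM in old and 4179 to 5221 CPM in young mice. The sum of 7 liver genes was 86.2 CPM for old 2, 23.4 for old 3 and 20.9 for young 4, and 0.658 to 9.78 CPM elsewhere. Ttr encodes transthyretin, which choroid plexus epithelium secretes. A set of 3 libraries was low in it, with 1.56 CPM for old 3, 5.26 for young 3 and 2.35 for young 4, and the remaining 5 had 150 to 432 CPM. Because whole tissue was sequenced, the cells that each transcript came from are not known. Fewer ciliated cells, less RNA per ciliated cell and RNA from other cells cannot be told apart in any value that follows.

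Levels of the axoneme genes spanned a wide range. Compared per kilobase of exon, Cfap36 was highest at 29.2 CPM per kb, followed by Cfap97 at 10.1, Cfap20 at 6.62 and Cfap298 at 4.65 CPM per kb (means of 8 libraries). Cfap36 is a partner of the small GTPase Arl3, a ciliary transport protein, and Cfap20 seals the inner junction of the doublet. Among the 15 dynein heavy chains, the motor subunits of the arms, Dnah11 led with 3.14 CPM per kb, ahead of Dnah6 at 1.09 CPM per kb, and Dnah8 was lowest at 0.0198 CPM per kb. Rsph4a and Rsph9, which encode parts of the spoke head, had 2.82 and 2.40 CPM per kb, and Drc7 of the nexin-dynein regulatory complex had 2.05 CPM per kb. The highest tektin, Tekt2, a filament protein of the doublet wall, reached 0.956 CPM per kb. Cfap410 and Cfap47 had no match in the annotation used for lengths and have no value per kb.

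The spread between libraries also differed among the genes. Among the 57 genes with a mean of at least 1 CPM, the SD of log2 CPM over the 8 libraries was smallest in Cfap20 and Dnaic1, at 0.09 each, and in Cfap410, at 0.12. Dnaic1 encodes an intermediate chain of the outer arm, and human CFAP410 also acts at primary cilia. The SD was largest in Drc7 at 1.11, Cfap61 at 0.80 and Cfap65 at 0.77. Counting error enters this SD and weighs more at low counts. Dnaic1 had 20 to 24 counts a library and Cfap61 2 to 17, against 166 to 207 for Cfap20. The small SD of Dnaic1 therefore does not show a steadier level. Cfap61 belongs to the complex at the base of the radial spokes and Cfap65 to the central apparatus.

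The promoters of the axoneme genes were searched for the motifs of the RFX factors and of FOXJ1, transcription factors known to switch on motile cilium genes. RefSeq promoters (GRCm38.p6, 250 bases before to 50 after the annotated start) were found for 55 of the 66 genes, 62 promoters in all. GTTGCCA, a half-site of the RFX motif called the X-box, stood on either strand in 21% of these 62 promoters and in 4.38% of the 32851 promoters of all genes. The whole X-box, GTNNCC and GGNNAC with any 2 bases between them, can contain the half-site and reads the same on both strands. It was present in 9.68% of the promoters of axoneme genes and in 1.88% of all promoters. GTAAACA, a core of forkhead factors such as FOXJ1, stood on either strand in 6.45% and 3.65% of them. By gene, 17 of the 55 had a half-site or a whole X-box, for which the share over all genes was not counted. Taken singly, half-sites stood in 21.8% of the 55 genes and 5.02% of all 27025 genes. Whole X-boxes stood in 10.9% and 2.16% of them. These shares are descriptions with no test, and a match does not show that a factor binds.

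The promoters of 5 genes are printed to show these matches beside genes whose levels are described below, written 5′ to 3′ on the strand of the gene, with the half-sites and the whole X-boxes in capitals. The promoters of Cfap126 (chr1:171122795-171123094, plus strand) and Rsph9 (chr17:46144151-46144450, minus strand) held a whole X-box. The table has 2 more promoters of Cfap126, 1 of them around the start of the annotated gene (chr1:171113736-171114035), and neither held any of the motifs. Those of Cfap161 (chr7:83794790-83795089, minus strand) and Cfap44 (chr16:44394549-44394848, plus strand) held 3 and 2 half-sites, read here as TGGCAAC on the opposite strand. The promoter of Drc7 (chr8:95054853-95055152, plus strand) held none of the motifs in this window.
Cfap126: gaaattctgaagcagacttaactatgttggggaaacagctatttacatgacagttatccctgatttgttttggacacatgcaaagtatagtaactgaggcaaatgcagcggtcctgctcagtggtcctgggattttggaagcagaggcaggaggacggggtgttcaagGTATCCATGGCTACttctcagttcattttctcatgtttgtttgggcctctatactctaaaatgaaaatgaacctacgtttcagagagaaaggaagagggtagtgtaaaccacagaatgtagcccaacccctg
Rsph9: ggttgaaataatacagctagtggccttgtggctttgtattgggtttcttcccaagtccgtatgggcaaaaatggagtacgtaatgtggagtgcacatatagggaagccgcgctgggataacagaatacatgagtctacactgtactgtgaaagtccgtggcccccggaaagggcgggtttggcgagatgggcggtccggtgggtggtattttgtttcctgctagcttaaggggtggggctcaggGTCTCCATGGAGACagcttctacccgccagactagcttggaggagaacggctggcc
Cfap161: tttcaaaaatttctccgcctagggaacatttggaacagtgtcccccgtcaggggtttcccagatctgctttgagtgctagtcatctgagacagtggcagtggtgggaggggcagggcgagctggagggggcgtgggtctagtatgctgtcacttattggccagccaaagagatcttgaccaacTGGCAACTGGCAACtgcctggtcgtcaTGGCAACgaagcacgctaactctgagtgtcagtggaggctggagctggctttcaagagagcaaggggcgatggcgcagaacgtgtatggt
Cfap44: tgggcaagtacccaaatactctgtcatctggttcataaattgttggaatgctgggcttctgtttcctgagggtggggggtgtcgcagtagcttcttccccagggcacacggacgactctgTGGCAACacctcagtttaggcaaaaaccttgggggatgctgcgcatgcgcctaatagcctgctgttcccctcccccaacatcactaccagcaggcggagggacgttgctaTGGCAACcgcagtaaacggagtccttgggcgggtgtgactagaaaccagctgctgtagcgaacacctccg
Drc7: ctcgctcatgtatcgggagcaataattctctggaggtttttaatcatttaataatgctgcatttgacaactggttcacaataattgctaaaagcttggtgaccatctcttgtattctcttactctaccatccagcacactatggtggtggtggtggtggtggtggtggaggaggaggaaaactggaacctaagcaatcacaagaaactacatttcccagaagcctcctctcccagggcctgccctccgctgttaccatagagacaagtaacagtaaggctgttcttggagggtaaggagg

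Old and young cerebellum were compared to ask how transcript levels differ with age. With edgeR (quasi-likelihood, a term for sex, Benjamini-Hochberg adjustment over 15605 genes), 0 of the 64 axoneme genes reached an adjusted p of 0.05. Over all genes tested, 0.154% passed with higher and 0.0192% with lower levels in old mice. At an unadjusted p of 0.05 there were 6 axoneme genes, all higher in old mice, while 6.12% of all genes lay higher and 11.1% either way. DESeq2 and limma-voom also called 0 of the 64, with 3 and 7 genes at an unadjusted p of 0.05. The smallest adjusted p was 0.283. The count of 6 depended on single libraries: it was 1 without old 1 or without young 3, 3 without old 2, young 1, young 2 or young 4, 4 without old 4 and 9 without old 3.

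The log2 fold changes of old against young leaned to the positive side. They were positive for 48 of the 64 genes, against 51.9% of all genes tested, and their median was 0.20, against 0.01 for all genes. Weakly expressed genes in general leaned the same way. Among genes with a mean of 0.3 to 1 CPM, 7 of 7 axoneme genes were positive, beside 68.9% of all genes at that level. Of these, Dnah8, Cfap221 and Cfap58 averaged 0.266, 0.223 and 0.227 CPM in young mice. They passed the filter of 0.3 CPM only through their old values, so their positive sign was in effect fixed, here and in the 48 of 64. The same filter acted on all genes. At 1 to 5 CPM 20 of 31 were positive, beside 68.3% of all genes. At 5 to 20 CPM 16 of 20 were positive, beside 57.2%, and at 20 CPM or more 5 of 6, beside 42.5%. A separate fit of only the genes with a mean of 1 CPM or more gave 39 of 57 positive, beside 48.7% of all genes, and a median of 0.15. Leaving out old 4, old 1 or young 4 gave medians of 0.07, 0.11 and 0.12, with 38, 43 and 41 of 64 positive. Without old 3 the median was 0.26, with 58 positive, and with Ttr as a covariate it was 0.15, with 45 positive. The median was 0.42 without old 3, young 3 and young 4, the libraries low in Ttr, where 51 of 64 were positive. Counts summed over the 66 genes came to 547 ± 64.0 CPM in old and 476 ± 18.6 CPM in young mice (SD, n = 4 each), with old 3, at 457 CPM, inside the young range of 452 to 492 CPM. Such sums weigh strongly expressed genes most, with Cfap36, Cfap97 and Dnah11 at means of 80.1, 51.9 and 45.4 CPM over the 8 libraries.

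**Figure D1:**
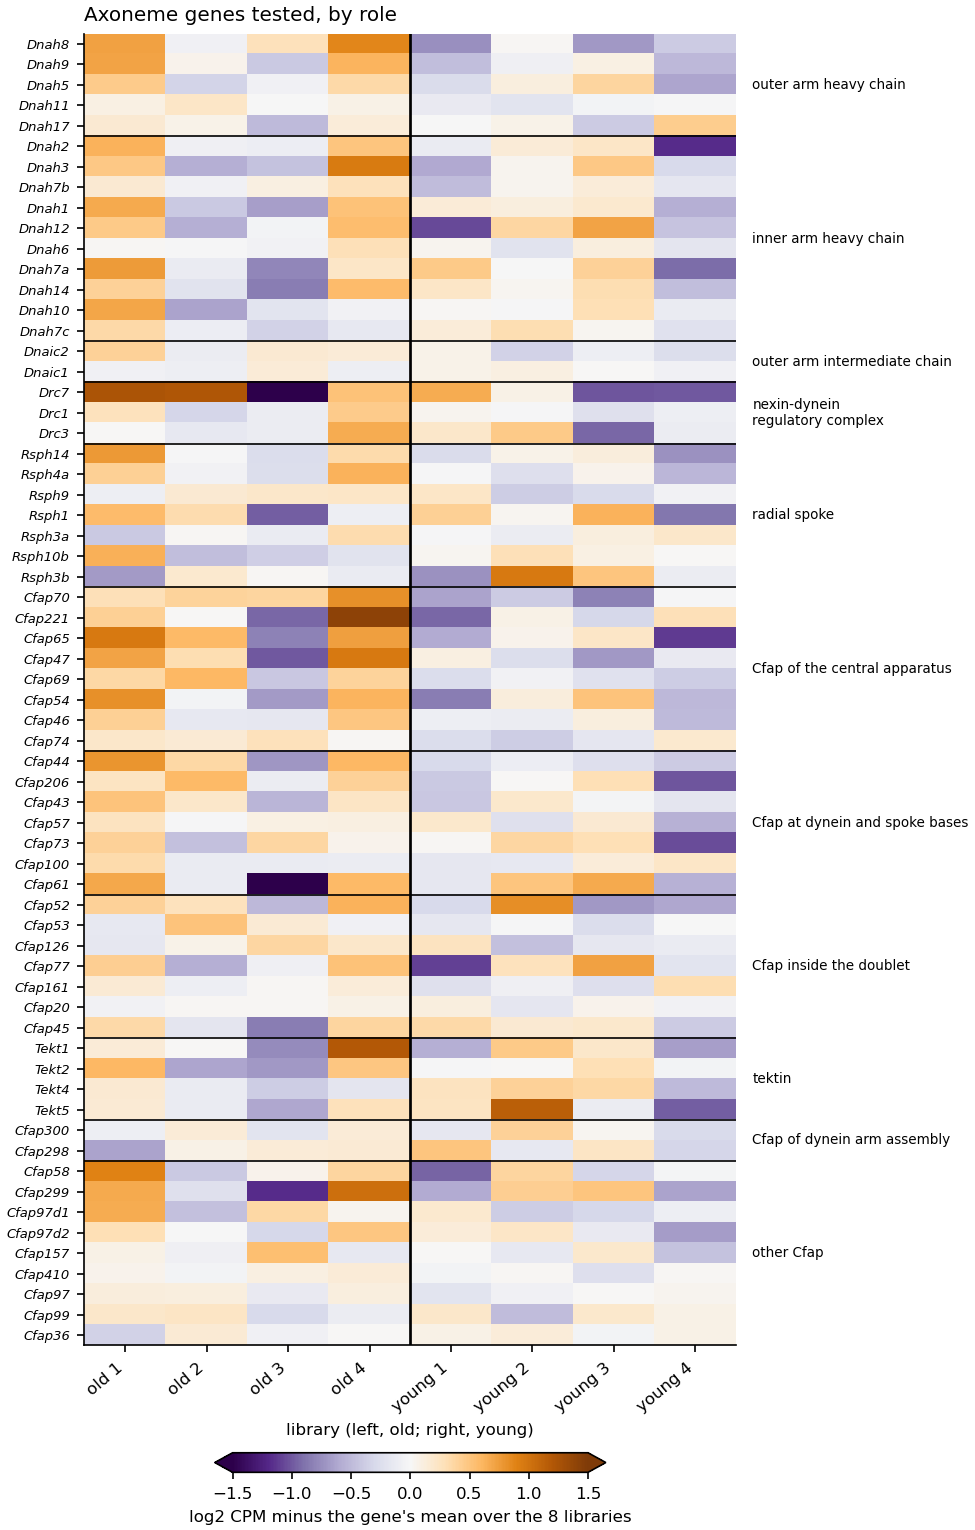
Log2 CPM of each of the 64 tested axoneme genes (rows, grouped by role) in each library (columns, old on the left and young on the right), as the difference from the mean of the gene over the 8 libraries, with colours that saturate at 1.5 in either direction. Old 1 and old 4 hold most of the high values, 21 and 19 genes having their highest value there, and old 3 and young 4 most of the low ones, with 16 and 17 genes at their lowest. Of all genes tested, 11.4% and 15.4% were lowest in old 3 and young 4, and the share highest in each library was not counted.

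Outer dynein arms, the power stroke motors, are built on heavy chains of which Dnah5, Dnah9 and Dnah11 serve in ciliated epithelia, while Dnah8 and Dnah17 are known from the sperm tail. Dnah11 (chr12:117877982-118199043, minus strand, GRCm38) had 48.6, 54.1, 44.99 and 48.8 CPM in old 1 to old 4, against 41.0, 38.8, 42.6 and 44.4 CPM in young 1 to young 4. Every old value lay above every young value, although the lowest old and the highest young values differed by less than 1 CPM. The log2 fold change of Dnah11 was 0.20 ± 0.08 (SE; edgeR adjusted p = 0.400). Besides Dnah11 only Cfap70 had old values wholly above young values, 2 genes in all, and 0 had them wholly below, while 4.58% of all genes tested were wholly higher and 1.72% wholly lower in old mice. Exons of Dnah11 share 642 bases with Cdca7l on the opposite strand, and whether counting used strand is not given in the sources used here.

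Dnah8 had the largest fold change of the axoneme genes, on very few counts. It had 6, 3, 4 and 7 counts in old 1 to old 4, against 1, 3, 1 and 2 counts in young 1 to young 4, or 0.978, 0.442, 0.625 and 1.13 CPM against 0.153, 0.468, 0.164 and 0.276 CPM. Old 2 lay below young 2, so the groups overlapped, and most young values lay below the floor of 3 counts. The young mean of Dnah8, 0.266 CPM, lay under the filter of 0.3 CPM, so it was tested only through its old values. The fitted log2 fold change was 1.46 ± 0.55 (SE; edgeR adjusted p = 0.339).

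Dnah9 had 10.9, 6.93, 4.84 and 10.4 CPM in old 1 to old 4, against 4.60, 6.08, 6.74 and 4.42 CPM in young 1 to young 4. Old 1, old 2 and old 4 stood above all young values and old 3 lay within the young range. Its log2 fold change was 0.56 ± 0.27 (SE; edgeR adjusted p = 0.483), and it was 0.33 without old 1 and 0.99 without the 3 libraries low in Ttr. Dnah5 averaged 7.16 ± 1.82 CPM in old and 6.08 ± 1.85 CPM in young mice (SD, n = 4 each), a log2 fold change of 0.21 ± 0.26 (SE). Dnah17 averaged 5.93 ± 1.25 CPM in old and 6.05 ± 1.53 CPM in young mice (SD, n = 4 each). Of the intermediate chains that anchor the outer arm, Dnaic1 averaged 3.37 ± 0.252 CPM in old and 3.40 ± 0.194 CPM in young mice, and Dnaic2 5.36 ± 0.792 CPM in old and 4.16 ± 0.574 CPM in young mice (SD, n = 4 each). Their log2 fold changes were -0.05 ± 0.22 and 0.32 ± 0.21 (SE).

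Inner arm heavy chains, which shape the bend of the cilium, were 10 of the genes. Their log2 fold changes were positive for 8 and lay between -0.13 and 0.45, with a median of 0.13 and 0 genes at an unadjusted p of 0.05 by edgeR's test. That direction rested on single libraries, since 4 of 10 were positive without old 1 (median -0.065), 3 without old 4 (-0.061) and 4 without young 4 (-0.041). The median was 0.55 without the 3 libraries low in Ttr, with 10 of 10 positive. Dnah7b was the most abundant of them by CPM, at 19.6, 16.8, 18.3 and 21.2 CPM in old 1 to old 4, against 12.1, 17.5, 18.3 and 15.1 CPM in young 1 to young 4. Young 2 and young 3 lay above old 2, so the groups overlapped. The log2 fold change of Dnah7b was 0.23 ± 0.15 (SE). Its close copies Dnah7a and Dnah7c averaged 1.78 ± 0.904 and 2.44 ± 0.587 CPM in old mice, and 1.67 ± 0.728 and 2.60 ± 0.444 CPM in young mice (SD, n = 4 each). The split between these copies is uncertain, since the sources used here do not say how reads that fit several of them were counted. Dnah6 averaged 15.2 ± 1.85 CPM in old and 13.7 ± 1.45 CPM in young mice (SD, n = 4 each). Dnah1, Dnah2, Dnah3, Dnah10, Dnah12 and Dnah14 averaged 4.51 to 9.92 CPM in old and 4.28 to 9.81 CPM in young mice, and in each of them the groups overlapped. Dnah3 shares 10.5% of its exon bases with Lyrm1 on the opposite strand.

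**Figure D2:**
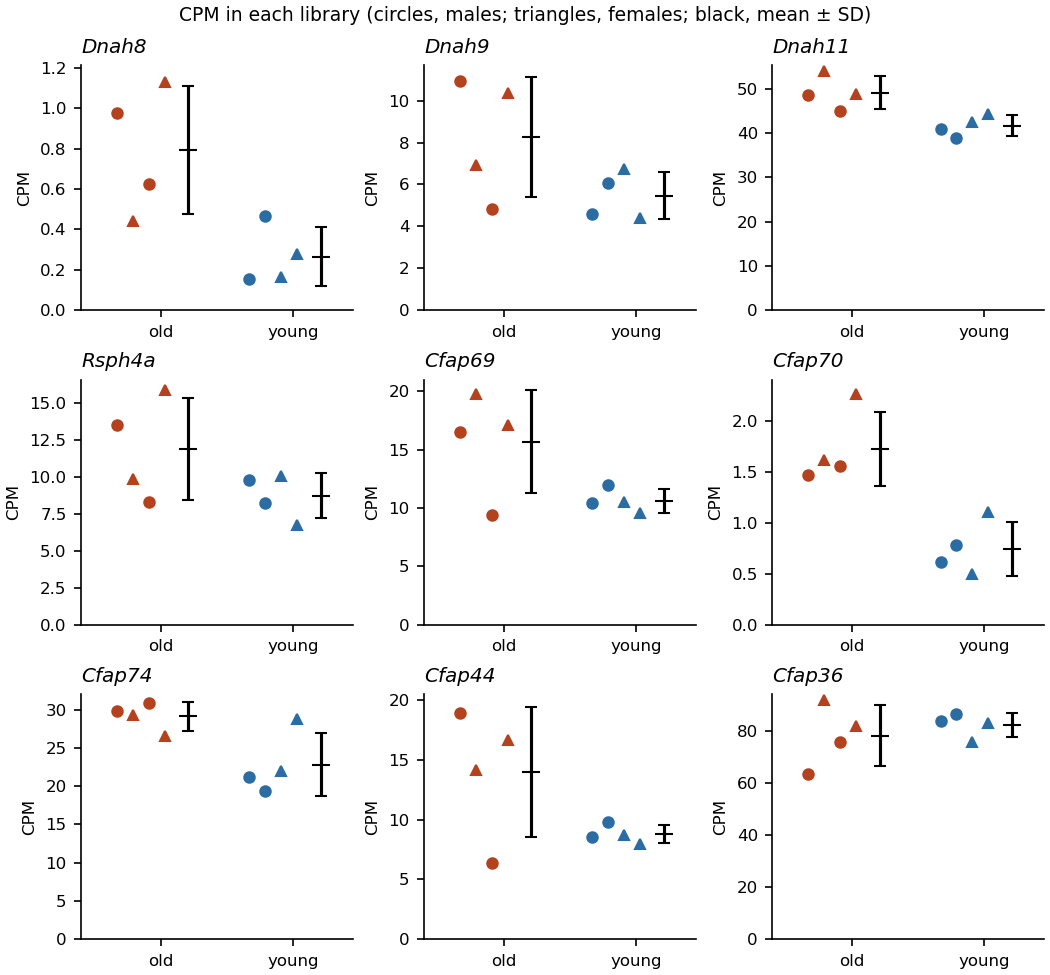
CPM of 9 axoneme genes in each library, with old on the left and young on the right of each panel, circles for males and triangles for females, and the mean ± SD of the 4 libraries of a group in black. In Dnah11 and Cfap70 every old value lies above every young value, and in Dnah9, Rsph4a and Cfap44 old 3 lies among the young values or below them.

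In the nexin-dynein regulatory complex, Drc1 and Drc3 averaged 2.45 ± 0.673 and 3.27 ± 1.06 CPM in old mice, and 2.09 ± 0.210 and 2.84 ± 1.17 CPM in young mice (SD, n = 4 each). Drc7 (chr8:95055103-95078141, plus strand, GRCm38) spread far more widely, with 11.7, 11.8, 1.25 and 7.12 CPM in old 1 to old 4, against 7.67, 4.99, 2.14 and 2.21 CPM in young 1 to young 4. Its lowest value stood in old 3 and its highest in old 2, so the old libraries spanned the whole young range. For Drc7 the log2 fold change was 0.89 ± 0.64 (SE; edgeR adjusted p = 0.662), and it was 0.53 without old 2, 1.40 without old 3 and 0.37 with Ttr as a covariate.

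Radial spoke genes had positive log2 fold changes in 3 of the 7 tested, a median of -0.07 and 0 genes at an unadjusted p of 0.05 by edgeR's test. The sign of the median turned with single libraries, at 0.21 without old 3, 0.18 without young 3, 0.083 without young 1 and 0.028 without young 2, and it was 0.068 by limma-voom and 0.36 without the 3 libraries low in Ttr. Without old 3, 1 spoke gene lay at an unadjusted p of 0.05. Rsph4a had 13.5, 9.88, 8.28 and 15.8 CPM in old 1 to old 4, against 9.82, 8.26, 10.03 and 6.77 CPM in young 1 to young 4. Old 1 and old 4 exceeded every young library, while old 2 and old 3 did not. The difference of Rsph4a was 0.41 ± 0.22 on the log2 scale (SE), and it was 0.21 without old 4. Rsph9, Rsph1, another spoke head gene, and Rsph10b averaged 4.23 ± 0.432, 1.65 ± 0.794 and 3.29 ± 1.42 CPM in old mice, and 3.45 ± 0.746, 1.72 ± 0.780 and 3.55 ± 0.341 CPM in young mice (SD, n = 4 each). Rsph3a and Rsph3b encode near-identical stalk proteins, so reads may be split between them.

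Cfap genes of the central apparatus had positive log2 fold changes in 8 of 8, with a median of 0.61, and 3 of them lay at an unadjusted p of 0.05 with old higher by edgeR's test, beside 6.12% of all genes. Only 1 did without old 1, without old 2 or without young 3, and 2 with the replicate block. None passed after adjustment. Roles were assigned with the values known, so the count is a description. Cfap221 passed the filter of 0.3 CPM only through its old values, so its positive sign was in effect fixed. A separate fit of only the genes with a mean of 1 CPM or more had 7 of 7 positive, at a median of 0.51. The 8 stayed positive without the 3 libraries low in Ttr, at a median of 0.94, with Ttr as a covariate, at 0.39, and without each library in turn, at medians of 0.40 without old 4 to 0.87 without old 3. Summed, they came to 76.7 ± 13.9 CPM in old and 54.0 ± 4.10 CPM in young mice (SD, n = 4 each), and the lowest old sum, 56.7 CPM, lay below the highest young sum, 58.9 CPM.

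Cfap70 (chr14:20394193-20452226, minus strand, GRCm38) had the smallest p of all axoneme genes. It had 9, 11, 10 and 14 counts in old 1 to old 4, against 4, 5, 3 and 8 counts in young 1 to young 4, or 1.47, 1.62, 1.56 and 2.26 CPM against 0.614, 0.780, 0.493 and 1.11 CPM. All 4 old libraries lay above all 4 young ones. The log2 fold change was 1.12 ± 0.37 (SE; edgeR adjusted p = 0.283), and it lay between 0.92 and 1.34 with each library left out.

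Cfap69 (chr5:5579278-5664239, minus strand, GRCm38), needed for sperm tails and for olfactory cilia in mice, had 16.5, 19.8, 9.37 and 17.1 CPM in old 1 to old 4, against 10.4, 12.01, 10.5 and 9.54 CPM in young 1 to young 4. Old 1, old 2 and old 4 stood above every young library and old 3 below all of them. Its log2 fold change was 0.52 ± 0.20 (SE; edgeR adjusted p = 0.349). Cfap74 had 29.8, 29.3, 30.9 and 26.5 CPM in old 1 to old 4, against 21.2, 19.3, 22.0 and 28.7 CPM in young 1 to young 4. Only young 4 reached into the old range. For Cfap74 the log2 fold change was 0.31 ± 0.13 (SE; edgeR adjusted p = 0.405).

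Cfap65, among the most variable axoneme genes, had 16.96, 13.3, 4.69 and 14.7 CPM in old 1 to old 4, against 5.52, 8.73, 9.705 and 3.73 CPM in young 1 to young 4. Again old 1, old 2 and old 4 stood above every young library while old 3 lay among them. The log2 fold change of Cfap65 was 0.81 ± 0.41 (SE; edgeR adjusted p = 0.513). It was 0.50 without old 1, 0.51 without young 4 and 1.21 without the 3 libraries low in Ttr. The other genes of this group, Cfap46, Cfap47, Cfap54 and Cfap221, averaged 8.14 ± 2.06, 2.21 ± 1.19, 6.85 ± 3.05 and 0.519 ± 0.554 CPM in old mice. In young mice they averaged 6.31 ± 1.07, 1.28 ± 0.359, 5.07 ± 2.18 and 0.223 ± 0.180 CPM (SD, n = 4 each), and the groups overlapped in each.

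The 7 Cfap genes at the bases of the dynein arms and spokes included 5 with a positive log2 fold change, and the median was 0.24. That median was 0.055 without young 4, 0.15 without young 1, 0.39 without young 3 and 0.48 without the 3 libraries low in Ttr. Cfap44 (chr16:44394796-44482428, plus strand, GRCm38), which tethers an inner arm dynein in ciliates and algae, had 18.9, 14.2, 6.40 and 16.7 CPM in old 1 to old 4, against 8.59, 9.82, 8.72 and 8.01 CPM in young 1 to young 4. The young libraries lay close together, 3 old libraries lay above them and old 3 below them. The log2 fold change of Cfap44 was 0.63 ± 0.28 (SE; edgeR adjusted p = 0.438). Without old 3 it was 0.90 ± 0.16 (SE; edgeR adjusted p = 0.0349), the only axoneme gene past the threshold for age or sex under any setting tried. Cfap43, its partner, averaged 6.84 ± 1.99 CPM in old and 5.58 ± 1.01 CPM in young mice, and Cfap61 1.79 ± 1.14 CPM in old and 1.83 ± 0.785 CPM in young mice (SD, n = 4 each). Cfap61 had its lowest value, 0.312 CPM, in old 3 and its highest, 2.77 CPM, in old 1.

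Among the 7 Cfap genes that line the inside of the doublet, 6 had a positive log2 fold change, and the median was 0.10, with 0 at an unadjusted p of 0.05 by edgeR's test. The median was 0.044 without old 1, 0.068 without old 4, 0.17 without old 2, 0.18 without young 3, 0.19 without young 4 and 0.036 without the 3 libraries low in Ttr. Cfap20 varied little, with 28.7, 30.5, 29.7 and 31.7 CPM in old 1 to old 4, against 31.8, 25.9, 29.6 and 28.1 CPM in young 1 to young 4. The groups overlapped almost wholly. Its log2 fold change of 0.03 ± 0.10 (SE) turned to -0.03 without young 2 and to -0.01 without young 4. Cfap126, also called Flattop, averaged 4.27 ± 0.666 CPM in old and 3.499 ± 0.813 CPM in young mice, and Cfap161 1.97 ± 0.173 CPM in old and 1.77 ± 0.399 CPM in young mice (SD, n = 4 each).

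Of the 4 tektins tested, 1 had a positive log2 fold change, and their median was -0.18. The median turned to 0.11 without old 3, with 3 of 4 positive, and to 0.069 without young 2. Tekt1, Tekt2, Tekt4 and Tekt5 averaged 1.70 ± 1.19, 1.83 ± 0.982, 1.02 ± 0.217 and 1.104 ± 0.364 CPM in old mice. In young mice they averaged 1.20 ± 0.570, 1.80 ± 0.227, 1.28 ± 0.398 and 1.40 ± 1.02 CPM (SD, n = 4 each), so that the larger SD exceeded the difference between the means in all 4. Cfap298 and Cfap300, which serve the assembly of dynein arms in the cytoplasm, averaged 7.15 ± 1.73 and 4.07 ± 0.566 CPM in old mice, and 7.64 ± 2.06 and 3.99 ± 0.930 CPM in young mice (SD, n = 4 each). An antisense gene covers 44.2% of the exon bases of Cfap298.

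Of the 6 axoneme genes with a mean of 20 CPM or more, Dnah11 and Cfap74, given above, lay at an unadjusted p of 0.05 by edgeR's test, and Cfap20, Cfap36, Cfap97 and Cfap410 did not. Cfap36 had 63.4, 91.7, 75.6 and 81.7 CPM in old 1 to old 4, against 83.6, 86.2, 75.5 and 82.9 CPM in young 1 to young 4. Old 1 was lowest and old 2 highest, with the young libraries between them. The log2 fold change of Cfap36 was -0.11 ± 0.10 (SE). Cfap97 averaged 54.7 ± 5.10 CPM in old and 49.2 ± 3.18 CPM in young mice, and Cfap410 24.9 ± 1.28 CPM in old and 22.3 ± 2.07 CPM in young mice (SD, n = 4 each). Their log2 fold changes were 0.11 ± 0.09 and 0.12 ± 0.11 (SE).

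**Figure D3:**
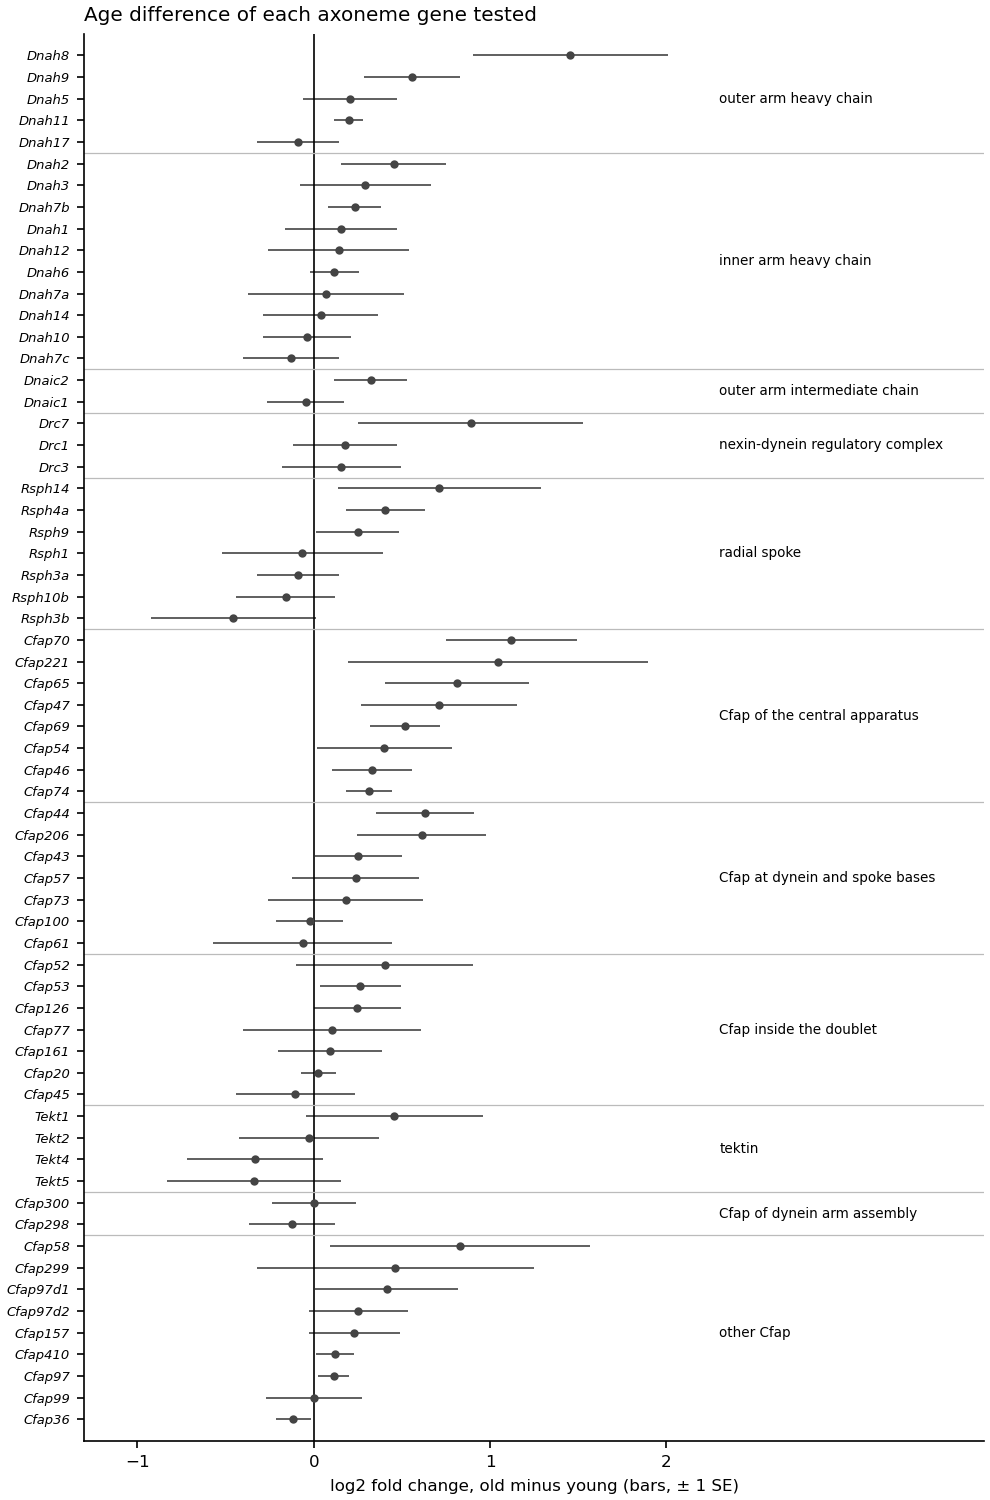
Log2 fold change of old against young (x axis, positive where old is higher) with its SE for each of the 64 tested axoneme genes, grouped by role down the page. The Cfap genes of the central apparatus lie between 0.31 and 1.12, while radial spoke genes and tektins lie on both sides of 0.

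The comparison of females with males used the same fit with a term for age. None of the 64 axoneme genes passed edgeR's test, where 0.0128% of all genes passed with higher and 0.0256% with lower levels in females. At an unadjusted p of 0.05 there were 0 axoneme genes, against 4.88% of all genes, and DESeq2 called 0 as well. Log2 fold changes of female against male were positive for 36 of 64 genes, against 51.1% of all genes tested. The axoneme genes had a median of 0.04, against 0.004 for all genes, and an adjusted p of at least 0.928 by edgeR's test. The 66 genes summed to 546, 600, 492 and 452 CPM in the females old 2, old 4, young 3 and young 4, against 584, 457, 472 and 489 CPM in the males old 1, old 3, young 1 and young 2. The sexes overlapped at each age. The median was -0.15 without old 3, -0.08 without old 4 and -0.03 without young 3. Without old 4, 22 of the 64 were positive, and without old 3, young 3 and young 4 19 were. Among young mice the 2 libraries low in Ttr were those of both females, so sex and the level of Ttr cannot be told apart there. Whether the age difference varied with sex was tested with 2 animals in each cell. By edgeR's interaction test 0 axoneme genes and 0% of all genes passed. At an unadjusted p of 0.05 there were 0 of the 64 axoneme genes. Of all 15605 genes tested, 255 lay there with a positive and 119 with a negative difference (age effect in females minus males). DESeq2 also called 0 axoneme genes.

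Other genes of the motile cilium and markers of neighbouring cell types were set beside the axoneme genes, 176 tested genes in 13 lists. None passed edgeR's test for age, 22 lay at an unadjusted p of 0.05, beside 11.1% of all genes, and that count was 11 without old 2, 13 without old 1 or without young 4, 14 without young 1 and 46 without old 3. DESeq2, which called 0.763% of all genes, called 1, the Purkinje cell gene Gng13, with a log2 fold change of -0.41 ± 0.11 (SE) and an adjusted p of 0.0310. Foxj1, the forkhead factor that directs the motile cilium programme, had 19.2, 22.8, 18.9 and 30.6 CPM in old 1 to old 4, against 20.6, 23.5, 19.6 and 13.3 CPM in young 1 to young 4. Only old 4 exceeded the young range and only young 4 lay below the old one. Its log2 fold change was 0.22 ± 0.20 (SE), and it was 0.01 without young 4, 0.03 without old 4 and -0.24 without the 3 libraries low in Ttr. Rfx3, an RFX factor of ciliated cells and neurons, averaged 125 ± 6.24 CPM in old and 113 ± 8.95 CPM in young mice (SD, n = 4 each). The 10 tested genes of that programme split evenly, with 5 positive log2 fold changes.

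The list of other central apparatus genes, made without Cfap symbols, had 9 of 11 positive log2 fold changes, a median of 0.45 and 4 genes at an unadjusted p of 0.05, all with old higher, beside 6.12% of all genes. That count was 1 without old 1, without young 1 or with the replicate block, and 2 without old 4 or without young 3. The median of that list was 0.10 without old 4, 0.27 without young 4 and 0.22 with Ttr as a covariate. Hydin, which encodes a giant protein of a central microtubule projection, had 12.1, 11.4, 8.43 and 11.6 CPM in old 1 to old 4, against 5.22, 9.20, 6.25 and 8.71 CPM in young 1 to young 4. Old 1, old 2 and old 4 stood above every young library and old 3 among them. Hydin had a log2 fold change of 0.52 ± 0.20 (SE; edgeR adjusted p = 0.369). Spef1, which bundles microtubules of the central pair, averaged 13.1 ± 2.31 CPM in old and 13.2 ± 1.83 CPM in young mice (SD, n = 4 each). Genes of dynein arm assembly and docking had 17 of 21 positive, with a median of 0.19, genes of the inner doublet 13 of 16, with a median of 0.19, and genes of the nexin link and spokes 8 of 12, with a median of 0.14. Without old 1 or without young 4 these 3 medians reached 0.085, 0.027 and 0.013 at their lowest. Genes of intraflagellar transport, the carrier system that primary and motile cilia share, had 11 of 31 positive, with a median of -0.05. Kif3b and Kifap3 of its motor averaged 130 ± 5.73 and 139 ± 2.72 CPM in old mice, and 140 ± 4.73 and 146 ± 15.4 CPM in young mice (SD, n = 4 each).

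Markers of the cells that bear these cilia were counted in the same way. Other ependymal genes had 13 of 17 positive log2 fold changes, a median of 0.24 (0.08 without old 4, 0.45 without old 2), and summed to 142 to 186 CPM in old and 145 to 166 CPM in young mice. Their median deviation from the mean log2 CPM was highest in old 4, at 0.45, and in old 1, at 0.33. Choroid plexus genes had 22 of 22 positive, a median of 1.22 with a median SE of 1.0 (0.69 without young 4, 1.92 without young 1), and summed to 126 to 2057 CPM in old and 98.7 to 883 CPM in young mice. Enpp2, its most abundant member, had 334, 627, 56.2 and 272 CPM in old 1 to old 4, against 269, 226, 76.2 and 45.6 CPM in young 1 to young 4. Its low values stood in the 3 libraries low in Ttr at either age. Bergmann glia and astrocyte markers had 2 of 8 positive, 4 at most with 1 library left out, and granule neuron markers 0 of 10, likewise 4 at most. Purkinje cell markers had 1 of 8 positive, with a median of -0.15. Liver genes had 7 of 7 positive, a median of 2.09 with a median SE of 1.1 (0.57 without old 2, 3.9 without young 4). Of the testis genes, 3 were tested, and the germ cell genes Sycp3 and Ddx4 averaged 2.33 ± 0.752 and 0.555 ± 0.292 CPM in old mice, and 0.942 ± 0.213 and 0.767 ± 0.191 CPM in young mice (SD, n = 4 each). The part of these lists in the age differences of the axoneme genes was not tested, beyond the fits with Ttr as a covariate or without the libraries low in it.

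Library by library, the axoneme genes were set beside Ttr, which had a log2 fold change of 1.75 ± 1.99 (SE) between old and young mice, 3.34 without old 3 and 0.66 without young 4. The libraries fell into a cluster of 3 with Ttr below 10 CPM and a cluster of 5 above, each too small for a correlation. In the order of rising Ttr the sums of the 66 genes were 457 CPM (old 3), 452 (young 4), 492 (young 3), 489 (young 2), 600 (old 4), 472 (young 1), 584 (old 1) and 546 (old 2). The range of the low cluster, 452 to 492 CPM, thus held young 1 and young 2 of the other cluster too. Cfap36, the largest part of each sum, was itself lowest in old 1. The median deviation of the tested genes from their own mean log2 CPM was -0.14 for old 3, -0.27 for young 4 and 0.09 for young 3. For the other libraries it was 0.03 (young 2), 0.30 (old 4), -0.03 (young 1), 0.35 (old 1) and -0.04 (old 2). Old 2 had the highest Ttr and the highest liver gene sum, while its median deviation of -0.04 lay near the middle. Its axoneme sum of 546 CPM lay above every young library and below old 1 and old 4. Old 1 and old 4, with the highest axoneme values, came from the mice of 93 and 102 weeks, and old 2 and old 3 from mice of 83 weeks. In old 1 and old 4, 54 and 53 of the 64 genes lay above their own mean, against 52.9% and 52.1% of all genes. In old 3 and young 4, 16 and 17 of the 64 genes had their lowest value, or 25.0% and 26.6%, against 11.4% and 15.4% of all genes.

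For 4 axoneme genes, Cfap52, Cfap97d2, Drc7 and Tekt5, the 3 libraries low in Ttr all lay below the other 5, while 3.52% of all genes did so. Drc7 stood apart in size, with 1.25 to 2.21 CPM in the low libraries and 4.99 to 11.8 CPM in the others. Cfap52, a protein inside the doublet, had 0.493 to 0.625 CPM in the low libraries and 0.767 to 2.03 CPM in the others, few counts in each. Of the 22 choroid plexus genes 20 had that pattern, Ttr itself among them, which meets it by definition. Of the 17 other ependymal genes 1 did, and of the 21 genes of dynein arm assembly and docking 3 did. The pattern also held for 1 gene each of the motile cilium programme, the nexin link and spokes, the inner doublet and intraflagellar transport. Gmnc, which starts the multiciliated cell programme, was among the genes with the pattern. It had 6.36, 7.22, 0.938 and 4.37 CPM in old 1 to old 4, against 2.15, 2.65, 0.329 and 0 CPM in young 1 to young 4. Gmnc was singled out after its values were seen.

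**Figure D4:**
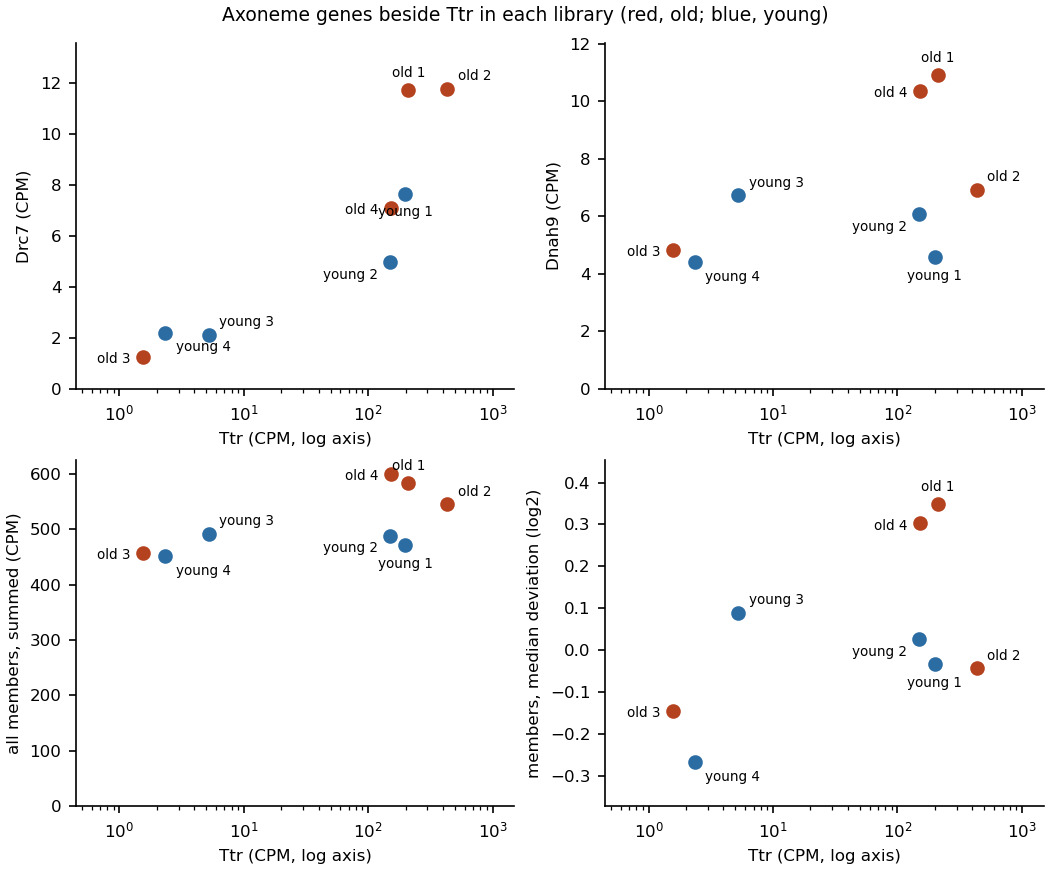
Each point is a library (red, old; blue, young), with Ttr in CPM on a log x axis and, on the y axes, Drc7 and Dnah9 in CPM, the sum of all 66 axoneme genes in CPM and their median deviation in log2 CPM. Drc7 is low in all 3 libraries with low Ttr, while Dnah9 and the whole set are highest in old 1 and old 4 and not in old 2, where Ttr is highest.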

How the data were processed

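RNA of 8 frozen cerebella, 1 library for each mouse, was measured by sequencing of total RNA depleted of ribosomal RNA. Tissue, age and sex follow the sample labels. The series' design text names liver and other ages, and it describes biological replicates. The authors deposited 1 table of raw counts per gene for each library, whole numbers with no normalization per the file headers. The submitters' processing notes name STAR 2.7.5b, featureCounts and Trimmomatic 0.39 among the tools and GRCm38 and mm10 as builds. The sources used here do not state the gene annotation, the strand setting or the treatment of reads with several matches. Spreadsheet conversion had turned 24 gene names into dates in 7 of the 8 libraries, and their lines were joined by position with the table that kept the names.

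Genes with a mean of 0.3 CPM or more were fitted with edgeR 4.0.16 (R 4.3.3; TMM scaling, robust quasi-likelihood, legacy dispersions off) on age and sex. Adjustment was by Benjamini-Hochberg across the 15605 genes, with a threshold of 0.05. P-values measure the spread between animals, and the scripts were tested on simulated data. CPM values use unadjusted library totals, and log2 CPM a prior count of 2. Log2 fold changes set old against young, or females against males. Exon lengths, coordinates and overlaps are from GENCODE M21 (GRCm38), which matched 64 of the 66 symbols. A deviation is a gene's log2 CPM minus its mean over the 8 libraries. DESeq2 1.42.0, limma 3.58.1 (voom with quality weights), other filters and scalings, Ttr as a covariate, a replicate block and leaving out libraries were alternatives.

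The members, the 13 lists and the role groups were chosen with earlier results of these data known. Genes named were all tested Dnah genes, the 4 highest per kb of each other family (8 for Cfap), the 3 with the smallest p for age, the 3 least and the 3 most variable, the 2 highest of each list, Foxj1 and Ttr. Others named, such as Cfap44, were chosen after their values were seen. Not every gene that this rule names is printed.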

Additional observations from a re-analysis of the deposited data

Results flagged for a closer look

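In 12 of the 138 groups of 4 libraries looked at, 1 library stood far from the other 3 by Dixon's criterion, which chance meets in about 1 group in 20. Among old mice, old 3 was low in Cfap97 (47.02 CPM) and Dnah17 (4.061 CPM) and high in Dnaic1 (3.749 CPM). Old 1 was low in Cfap298 (4.566 CPM), in Rsph9 (3.588 CPM) and in the ependymal gene Pltp (12.39 CPM). Old 4 was high in Drc3 (4.851 CPM) and low in the granule neuron gene Fat2 (888.3 CPM). Among young mice, young 4 was low in Dnah1 (5.666 CPM) and high in the liver gene Apob (5.666 CPM). Young 3 was high in Tekt2 (2.138 CPM) and in the astrocyte gene Aldoc (1616 CPM).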

How the results depend on the processing

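Of 600 values recomputed under another setting, 585 kept their direction and side of the threshold or moved little. Counts of 0 genes called were among the 585. So were the median for age without old 4, 0.07 against 0.20, and the 38 positive log2 fold changes there, against 48. Leaving out each library in turn gave 0 to 1 axoneme genes called higher for age (1 without old 3, Cfap44). It gave 38 to 58 positive log2 fold changes for age, 22 to 41 for sex and 0 to 1 genes of the other lists called (1 without old 3, Gng13, and 1 without old 4, Fgb). DESeq2 called 1 list gene. At an unadjusted p of 0.05, 6 axoneme genes and 22 list genes were called. Without old 3, young 3 and young 4 the median log2 fold change was 0.42 for age and -0.19 for sex, 19 sex differences were positive, and Foxj1 turned to -0.24. Cfap20 turned to -0.047 there, and with 1 library left out it lay between -0.035 (without young 2) and 0.089 (without young 1), below 0 also without young 4. The cause of these changes was not tested. Counts over all genes were less stable: 27 were called for age, 119 by DESeq2, 1 by limma-voom, 12 with Ttr as a covariate, 4 without the 3 libraries low in Ttr, and 0 without young 3 or without young 4. The correlation of same-numbered old and young libraries, over deviations from the mean of each age, was 0.13, -0.20, -0.04 and -0.21. Libraries of unlike number ran from -0.43 (old 1 with young 4) to 0.42 (old 1 with young 2). These values cannot show whether equal numbers mark a shared batch, since sex and other differences between animals enter them too. With the replicate block, the median log2 fold change of the axoneme genes was 0.21 with 48 of 64 positive, 0 were called, and 1 gene in all was called. Depth limits the weakly expressed members, with a median SE of 0.58 below a mean of 1 CPM and 0.10 at 20 CPM or more.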
